A study of Mus musculus with 2 samples.

Results

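Lipid-associated macrophage genes are a set of 10 genes, taken here as a fixed list, out of the 32285 genes counted in the files, and all 10 had UMIs (unique molecular identifiers, each marking 1 captured transcript) in both libraries. They are Gpnmb and Trem2 (cell-surface proteins), Apoe, Apoc2, Lpl and Fabp5 (lipoprotein and fatty acid handling), Cd9 and Cd63 (tetraspanins), Lgals3 (galectin-3) and Syngr1 (a vesicle protein). The data were 2 droplet-based 3′ single-cell RNA libraries from injured mouse kidney, taken 14 days after ischemia-reperfusion injury made by clamping 1 renal artery, and both groups received 4 tamoxifen injections after the injury. The control library came from Cre- mice, and the haplodeficient library from Cdh5-CreERT2; Phd3f/+ mice, in which a tamoxifen-activated Cre under the endothelial Cdh5 promoter removes 1 floxed copy of Phd3, an oxygen-sensing prolyl hydroxylase. The labels do not say how many animals went into a library or whether the Cre- mice carried the floxed allele, and both libraries are marked as 1 batch. With 1 library per group there was no replicate and no test of the genotype. All intervals are 95% intervals that cover counting error only, and every difference between the libraries is a difference between these 2 libraries.

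Macrophages that take up lipid-rich debris, such as dying cells or lipoproteins, carry a shared set of transcripts in fat, artery wall, brain and injured kidney. TREM2 is a surface receptor for lipids, apolipoproteins and cell debris that signals through the adaptor TYROBP. APOE carries cholesterol out of the cell, lipoprotein lipase (LPL) releases fatty acids from triglyceride with APOC2 as its cofactor, FABP5 carries fatty acids inside the cell, and GPNMB is a glycoprotein of lysosomes and the cell surface. CD63 and CD9 lie in late endosomal and surface membranes, and galectin-3 binds damaged lysosomes and extracellular sugars.

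The genes lie on several chromosomes (GENCODE M21, GRCm38, which is mm10), and all are protein-coding. Gpnmb lies at chr6:49036546-49070929 on the plus strand, Trem2 at chr17:48346401-48354147 on the plus strand, and Cd9 at chr6:125460266-125494791 on the minus strand. Apoe at chr7:19696109-19699188 and Apoc2 at chr7:19671579-19677941 are neighbours on the minus strand. Lpl lies at chr8:68880491-68907448, Fabp5 at chr3:10012548-10016607, Cd63 at chr10:128900989-128912822, Lgals3 at chr14:47367751-47386160 and Syngr1 at chr15:80091334-80119501, all on the plus strand. Processed pseudogene copies of Fabp5 exist, and how reads shared with such copies were counted is not given in the sources used here. RefSeq promoter windows (GRCm38.p6, 250 bases before to 50 after the start site) matched 8 of the 10 genes by symbol, Fabp5 and Lpl being the other two. For Apoe, which has 3 windows, the first was used. Both strands were searched for the E-box CACGTG and for CATGTG, for the AP-1 motif TGANTCA and for a PU.1 motif, GAGGAAGT. No window held more than 1 match, so no matches overlapped. The 3 windows that held a match are shown, 5′ to 3′ on the gene's strand, with the match in capitals. The windows of Apoe, Apoc2, Cd63, Lgals3 and Syngr1 held none. Of these genes, all but Apoe were also higher in the Gpnmb-rich macrophage subclusters described further on. A link between the motifs and the levels was not tested.
Gpnmb (chr6:49036268-49036567, plus strand): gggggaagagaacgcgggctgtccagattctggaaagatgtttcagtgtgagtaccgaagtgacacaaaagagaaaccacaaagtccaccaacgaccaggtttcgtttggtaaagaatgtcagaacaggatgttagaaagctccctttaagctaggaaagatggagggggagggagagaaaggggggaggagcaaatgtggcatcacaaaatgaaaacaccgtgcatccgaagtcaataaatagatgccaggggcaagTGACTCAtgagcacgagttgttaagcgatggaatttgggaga
Trem2 (chr17:48346151-48346450, plus strand): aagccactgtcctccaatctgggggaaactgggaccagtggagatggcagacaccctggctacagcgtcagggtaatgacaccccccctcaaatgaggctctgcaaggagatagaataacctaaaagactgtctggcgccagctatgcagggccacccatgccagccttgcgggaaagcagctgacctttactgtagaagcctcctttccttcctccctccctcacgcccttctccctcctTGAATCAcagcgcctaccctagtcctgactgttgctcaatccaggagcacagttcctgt
Cd9 (chr6:125494711-125495010, minus strand): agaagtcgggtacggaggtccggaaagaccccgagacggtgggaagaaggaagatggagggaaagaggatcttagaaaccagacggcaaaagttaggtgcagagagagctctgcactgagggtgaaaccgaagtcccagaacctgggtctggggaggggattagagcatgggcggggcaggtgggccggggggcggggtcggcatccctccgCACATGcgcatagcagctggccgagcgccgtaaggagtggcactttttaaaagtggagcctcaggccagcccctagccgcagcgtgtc
The AP-1 motif TGANTCA was found in 2 of the 8 windows, 8 bases after the start site in Gpnmb and 9 bases before it in Trem2, against 7.93% of the 27025 genes with a window. CATGTG, read as CACATG 38 bases before the start site, was found in Cd9, against 14.1% of all genes. CACGTG (7.24% of all genes) and GAGGAAGT (3.28%) were in none of the 8 windows, which says only that these letters are not there.

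After filters (at least 500 UMIs, at least 200 genes, at most 50% mitochondrial UMIs, doublets removed) 8737 control and 9222 haplodeficient cells were kept, from libraries of 134190236 and 114668145 UMIs over all barcodes. The 2 libraries stood apart in makeup and quality: proximal tubule-like cells were 34.2% of control and 3.59% of haplodeficient cells, and the median mitochondrial share over all kept cells was 10.1% and 2.69%. Egln3, the gene for PHD3, was at 23.5 CPM (a gene's UMIs per 1000000 UMIs of a class) in control and 23.1 CPM in haplodeficient endothelial-like cells, from 44 and 101 UMIs, so it was not lower in the haplodeficient library. Which exons are floxed is not given in the sources used here, and 3′ reads outside the deleted part would not show the deletion, so these levels do not check the labels. The libraries shared 28 cell barcodes, 0.296% of the control and 0.279% of the haplodeficient barcodes kept before doublet removal. Macrophage-like cells numbered 638 and 1104, and each of the 11 macrophage markers (C1qa, Csf1r and Adgre1 among them) was at least 9.85-fold above all other cells in both libraries. The class was named from these same markers, so their height in it followed in part from the naming. Monocyte-like cells numbered 52 and 369 (6 and 70 of them classical), and dendritic cell-like cells 126 and 176. There were 3 mononuclear subclusters left without a name, since markers of some other class outnumbered their own among the top genes. The 2 larger ones were led by Retnla (147 and 112 cells) and Il1a (39 and 60 cells). A further cluster of 68 and 212 cells with few UMIs, led by cell division genes such as Cenpf and Top2a, scored best as macrophage. It was left unnamed for its low depth and was not counted among the mononuclear subclusters. The 10 genes and the related gene lists described further on were kept out of the clustering, except the lists for dissociation, dividing cells and leukocytes.

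Gpnmb, Trem2, Fabp5, Apoe and Apoc2 had most of their UMIs in macrophage-like cells in both libraries. Gpnmb was the most restricted, macrophage-like cells holding 93.8% (93.0 to 94.6) of its control UMIs and 96.3% (95.9 to 96.6) of its haplodeficient UMIs. The shares were 80.2% and 90.4% for Trem2, 78.2% and 86.7% for Fabp5, 64.1% and 85.1% for Apoe, and 64.9% and 69.9% for Apoc2. The others were also found in tubule classes, as was Apoe (1226 and 1280 CPM in injured proximal tubule-like cells). Macrophage-like cells held 10.98% and 54.4% of Lpl UMIs, 27.0% and 64.6% of Syngr1, 15.5% and 25.8% of Lgals3, 4.88% and 9.44% of Cd9, and 4.05% and 14.3% of Cd63. These shares also depend on how many cells of each class a library held.

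**Figure D1:**
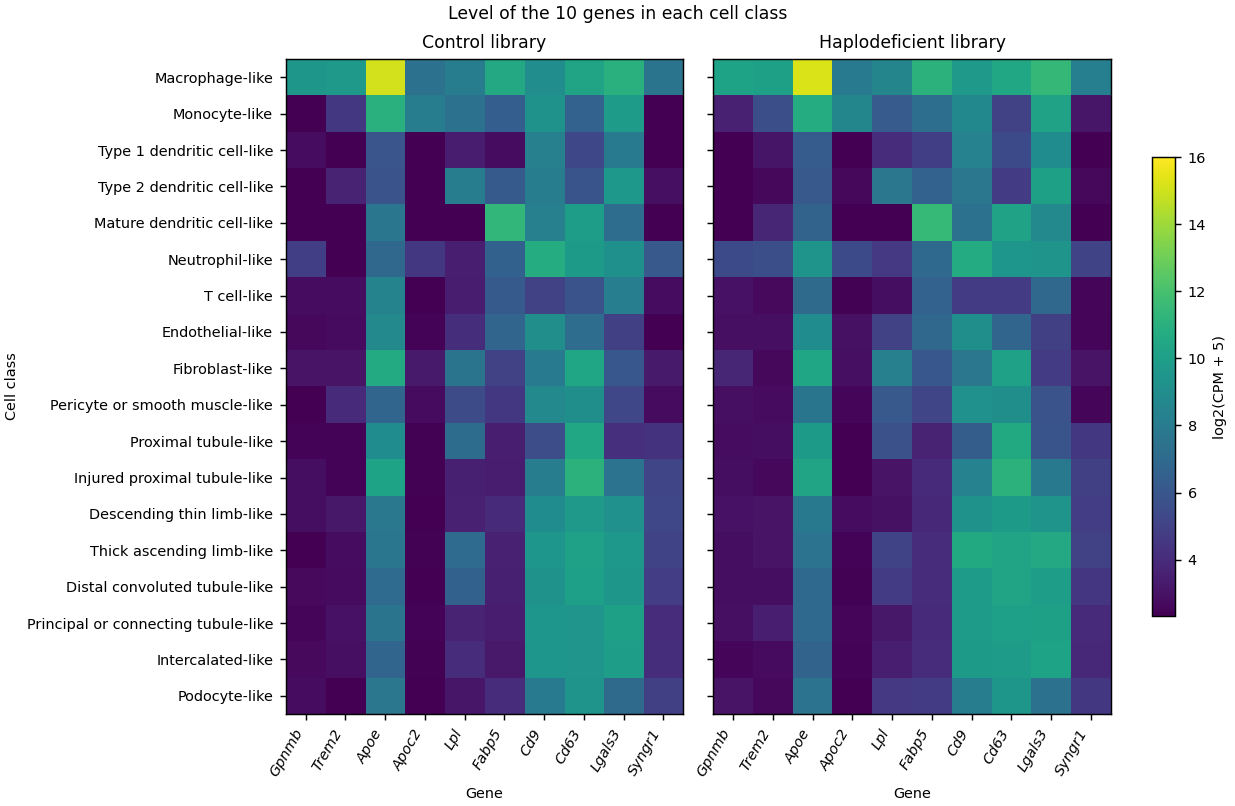
Level of each gene as log2(CPM + 5) by cell class (rows) and gene (columns) in the control (left) and haplodeficient library (right). Gpnmb and Trem2 are brightest in the macrophage-like row, while Cd9, Cd63 and Lgals3 are at a middle level across most tubule classes, and Fabp5 has a second high class, mature dendritic cell-like cells (2694 and 2881 CPM).

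Among receptors and surface proteins, Gpnmb was at 751 CPM in control and 1214 CPM in haplodeficient macrophage-like cells. The next class, neutrophil-like cells, was at 24.2 and 37.0 CPM, and the classes below it overlapped each other. In monocyte-like cells 0 Gpnmb UMIs were seen in the control, which allows up to 13.4 CPM, and 13 UMIs (7.15 CPM) in the haplodeficient library. Of those 13, 12 lay in classical monocyte-like cells (28.5 CPM), where free RNA would give 5.40% of them. Dendritic cell-like cells held 1 and 0 Gpnmb UMIs. The unnamed mononuclear subclusters were uneven: the Retnla-led one was at 89.6 and 3.16 CPM, the Il1a-led one at 0 UMIs in the control and 184 CPM in the haplodeficient library, and the H2-M2-led one (2 and 9 cells) at 0 UMIs and 763 CPM. Trem2 was at 801 and 1075 CPM in macrophage-like cells and at 17.9 and 44.0 CPM in monocyte-like cells, with the haplodeficient classical monocyte-like cells at 133 CPM.

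Among the lipid-handling genes, Apoe made up 34444 CPM of control and 38330 CPM of haplodeficient macrophage-like UMIs. Monocyte-like cells (2041 and 1792 CPM), fibroblast-like cells (1615 and 1319 CPM) and injured proximal tubule-like cells (1226 and 1280 CPM) followed, far below it. Dendritic cell-like cells were lowest of the 16 classes compared (62.4 and 73.9 CPM), and free RNA in the droplets, estimated from near-empty barcodes, would give 54.1% and 123% of the Apoe seen there. Apoc2, the LPL cofactor, had another order: monocyte-like cells were highest (259 and 390 CPM), above macrophage-like cells (168 and 242 CPM), in classical (228 and 425 CPM, the first from 8 UMIs) as in nonclassical monocyte-like cells (265 and 379 CPM). The macrophage-like level is a mix: it was 270 and 334 CPM in the Gpnmb-high subclusters described further on, near the monocyte-like level. In the other macrophage subclusters it was 108 and 94.4 CPM. Dendritic cell-like cells held 0 and 1 Apoc2 UMIs.

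Lpl was at 277 and 366 CPM in macrophage-like cells, which overlapped fibroblast-like cells (190 and 305 CPM) in the spread of the 2 libraries. The Retnla-led unnamed subcluster was above both, at 580 and 911 CPM, and among dendritic cells the type 2 class stood out (261 and 206 CPM, against 5.67 and 11.97 CPM in type 1). In the control, 48.4% of Lpl UMIs lay in proximal tubule-like cells and 21.01% in thick ascending limb-like cells; in the haplodeficient library these shares were 2.19% and 10.0%. The level per UMI was lower as well, at 138 against 47.9 CPM in proximal tubule-like and 135 against 30.0 CPM in thick ascending limb-like cells. The clusters that make up these classes were filled unequally by the libraries: a thick ascending limb-like cluster led by Egf held 307 of 1024 control and 37 of 1144 haplodeficient cells, and proximal tubule-like clusters led by Slc7a13 and Kap held 700 and 466 of 2988 control but 45 and 11 of 331 haplodeficient cells. The part of this makeup in the Lpl levels was not tested. Among genes that act on LPL, Gpihbp1, whose protein anchors LPL to capillary endothelium, was at 294 and 426 CPM in endothelial-like cells and at most 4.50 CPM in the next class. Angptl4, an LPL inhibitor, was highest in proximal tubule-like (87.3 and 129 CPM) and fibroblast-like cells (102.05 and 63.0 CPM). None of the 13 LPL partner genes passed the minimum level in macrophage-like cells (a mean of 50 CPM and 30 UMIs over both libraries). Fabp5 was at 1505 and 2222 CPM in macrophage-like cells. Its other high class was the small mature (Ccr7-positive) dendritic cell-like class of 10 and 13 cells, at 2694 and 2881 CPM, while type 1 (1.89 and 23.9 CPM) and type 2 (67.6 and 92.9 CPM) dendritic cell-like cells were low. The mature class was also high in Cd63 (1009 and 1167 CPM) but held 0 Gpnmb UMIs in either library.

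The tetraspanins were highest outside the macrophage-like class, and galectin-3 was shared with tubule classes. Cd9 was highest in neutrophil-like cells (1781 and 1683 CPM), followed by thick ascending limb-like cells (728 and 1585 CPM) and 3 further distal tubule and collecting duct classes, ahead of macrophage-like cells (508 and 796 CPM), which overlapped them. Cd63 was highest in injured proximal tubule-like cells (2167 and 2174 CPM), and macrophage-like cells (1263 and 1494 CPM) overlapped proximal tubule-like cells (1440 and 1571 CPM). Lgals3 was highest in macrophage-like cells (2056 and 2745 CPM), above thick ascending limb-like (770 and 1512 CPM) and intercalated-like cells (1012 and 1200 CPM). Syngr1, named for its role in synaptic vesicles, was at 184 and 296 CPM in macrophage-like cells, above neutrophil-like cells (66.6 and 29.9 CPM) and at or below 3.85 CPM in monocyte-like cells. Its annotation overlaps Rpl3 on the opposite strand at the 5′ ends of both genes, away from the 3′ ends that this assay reads.

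Within the macrophage-like class, 8 of the 9 genes other than Gpnmb were higher in the subclusters rich in Gpnmb. Of 8 subclusters, the ones numbered 2 and 5 were set apart, after their values had been seen, as Gpnmb-high because Gpnmb was at least 1000 CPM in both libraries and at least 100 cells were present. Subcluster 2 (103 and 307 cells) was led by Olr1, Rgcc, Fbxo32, Hilpda and Csf1, and subcluster 5 (39 and 145 cells) by Pde4c, Gm3336, Ifitm10, Trim69 and Cpb2. Subcluster 1 (191 and 335 cells) was led by Il1b, Gpr132, Rrad, Ccl4 and Ccl7, subcluster 3 (116 and 135 cells) by Ccl8, F13a1, Hspa1b, Hspa1a and Clec10a, and subcluster 4 (138 and 113 cells) by Negr1, Gm4951, F630028O10Rik, Lifr and Slco2b1. These last 3, without high Gpnmb, are called the other macrophage subclusters. Subcluster 6 was led by cell division genes such as Top2a, held 29 and 47 cells and was left out of both sets. Subclusters 7 and 8 (8 and 22, and 14 and 0 cells) carried tubule genes. They were left out of both sets because each held under 50 cells. Against all kept cells, the genes leading subcluster 7 were Gpnmb, Trem2 and Fabp5. The Gpnmb-high set therefore does not hold all macrophage-like cells rich in Gpnmb. In the 14 cells of subcluster 8, found only in the control library, the estimated free RNA share was 57.0%.

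Gpnmb itself, which set the groups apart, was at 1608 CPM in Gpnmb-high and 33.6 CPM in other subclusters of the control, and at 1834 and 16.6 CPM in the haplodeficient library. Without Gpnmb, whose difference was fixed by that choice, 8 of the other 9 genes were higher in the Gpnmb-high subclusters by at least 1.5-fold in both libraries. Over all genes tested the share was 18.4% in the control, 15.3% in the haplodeficient library and 12.8% in both. The 10 genes were chosen with earlier results of these data known, so the contrast with these shares was set in part by the choice. Fabp5 differed most after Gpnmb, from 132 to 3179 CPM across control subclusters (24.1-fold, 21.2 to 27.6) and from 103 to 3280 CPM across haplodeficient ones (31.8-fold, 28.2 to 35.9). Syngr1 followed, from 25.5 to 371 CPM (14.6-fold, 10.8 to 20.1) and from 27.7 to 437 CPM (15.8-fold, 12.6 to 20.2). Lgals3 was 11.3-fold and 9.05-fold higher (360 to 4068 CPM and 435 to 3941 CPM), Lpl 9.15-fold and 4.02-fold, and Cd9 8.23-fold and 7.45-fold. Trem2, at 286 CPM or more in all macrophage subclusters, was 3.96-fold and 3.74-fold higher, Cd63 2.72-fold and 3.45-fold, and Apoc2 2.51-fold and 3.54-fold. The 11 proximal tubule markers summed to 444 and 179 CPM in the other and Gpnmb-high subclusters of the control, and to 35.4 and 12.4 CPM in the haplodeficient library. Their part in these differences was not tested.

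Apoe was the exception. It was at 38170 CPM in the other and 37925 CPM in the Gpnmb-high subclusters of the control (0.994-fold, 0.983 to 1.004). The haplodeficient values were 36795 and 43810 CPM (1.19-fold, 1.18 to 1.20). Among subclusters its level was highest in subcluster 5 (49352 and 61110 CPM), next to subcluster 3 in the control (49234 CPM). It was lower in subcluster 2 (35144 and 37730 CPM) and lowest in the dividing subcluster (8134 and 11178 CPM). Lpl in subclusters 2 and 5 was at 537 and 248 CPM in the control, and at 467 and 479 CPM in the haplodeficient library. In the dividing subcluster several genes lay between the 2 sets, with Gpnmb at 135 and 956 CPM, Fabp5 at 1118 and 2206 CPM and Lgals3 at 1966 and 2478 CPM.

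**Figure D2:**
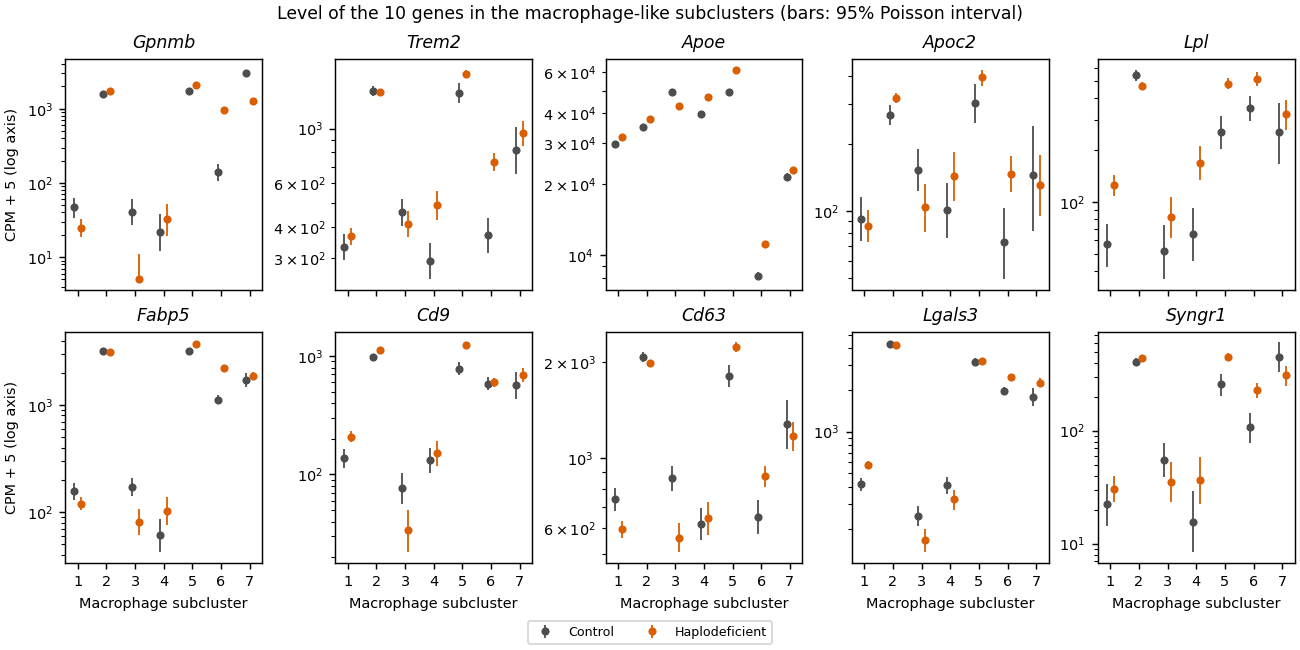
Level of each gene (CPM + 5, log axis, a separate scale for each gene) in macrophage-like subclusters 1 to 7 of the control (grey) and haplodeficient library (orange), with 95% Poisson intervals as bars. Subclusters 2 and 5 lie above subclusters 1, 3 and 4 for every gene but Apoe, whose lowest point is the dividing subcluster 6.

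Gpnmb-high cells held more UMIs per cell (median 9872.5 and 10447) than the other macrophage subclusters (3977 and 4399), while median mitochondrial shares were 3.74% and 3.57% in control cells of the 2 sets and 1.96% and 1.84% in haplodeficient cells. Detection was compared after each cell had been thinned to 1000 UMIs. A thinned Gpnmb-high cell held a median of 6 of the 10 genes in both libraries, and a thinned cell of the other subclusters a median of 2. The 10 include Gpnmb, which set the subclusters apart, so part of this contrast was fixed by that choice. No count without Gpnmb was made, and the cutoff of 7 genes used next was not planned. At least 7 genes had a UMI in 46 of 140 control Gpnmb-high cells (32.9%, 25.2 to 41.3) and in 141 of 451 haplodeficient ones (31.3%, 27.01 to 35.8), intervals that overlap. In the other subclusters 1 of 440 and 1 of 578 cells did (0.227% and 0.173%), and no thinned monocyte-like (52 and 368), dendritic cell-like (125 and 175) or neutrophil-like cell (96 and 584) did, which allows shares of up to 0.630% to 6.85% by the exact upper bounds.

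**Figure D3:**
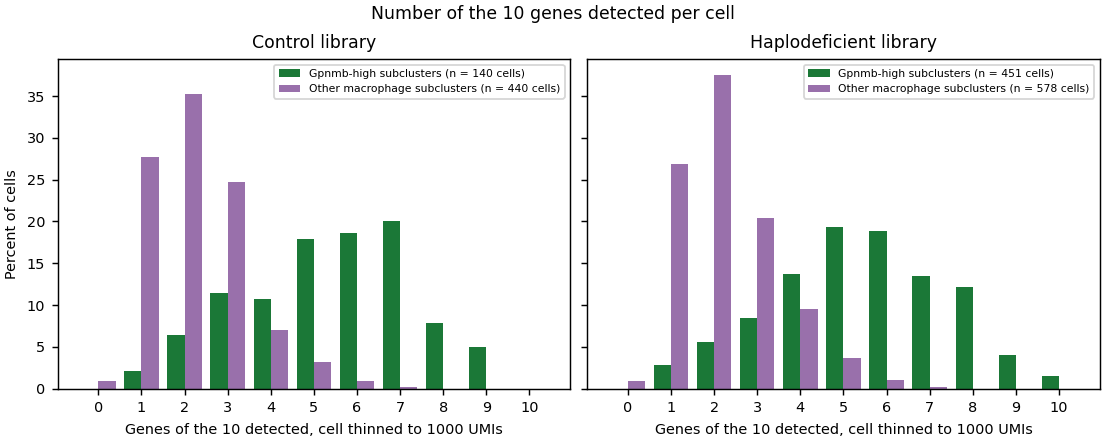
Percent of cells (vertical axis) by how many of the 10 genes had a UMI (horizontal axis) in cells thinned to 1000 UMIs, for Gpnmb-high (green) and other macrophage subclusters (purple) of each library. The quartiles are 4 and 7 genes for the green bars and 1 and 3 genes for the purple bars, in both libraries. The 10 genes include Gpnmb, by which the green and purple sets were told apart.

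The same macrophage-like cells were also read cell by cell, split by Gpnmb instead of by subcluster. Gpnmb-high subclusters held 2611 of the 3076 control and 10167 of the 11361 haplodeficient Gpnmb UMIs of these cells. The split therefore largely repeats the earlier contrast and is not separate support. After thinning, 69 of 631 control and 213 of 1098 haplodeficient macrophage-like cells held a Gpnmb UMI. In the control, 84.1% (73.3 to 91.8) of the cells with Gpnmb also had Fabp5, against 12.99% (10.3 to 16.1) of those without; the haplodeficient percentages were 82.2 and 16.8. Trem2 was detected in 78.3% and 28.3% of control and in 79.8% and 33.0% of haplodeficient cells. Syngr1 was detected in 29.0% and 3.74%, and in 39.9% and 7.23%. Apoe was near its ceiling with or without Gpnmb (98.6% and 96.4%, and 98.1% and 96.3%), so at this depth it did not separate the cells.

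**Figure D4:**
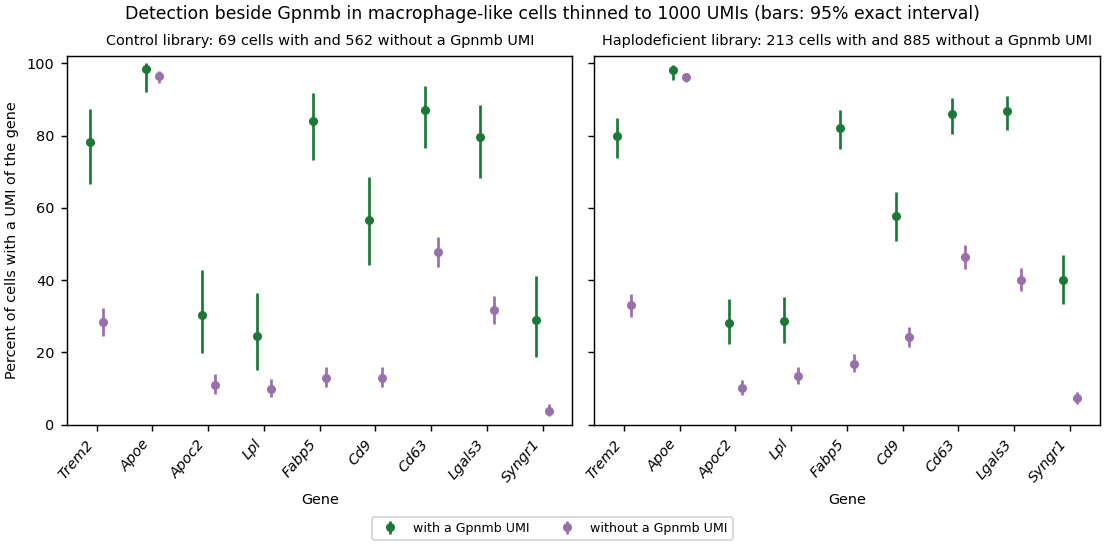
Percent of thinned macrophage-like cells with a UMI of each gene, among cells with (green) and without (purple) a Gpnmb UMI, in the control (left) and haplodeficient library (right), with exact 95% binomial intervals. The green point lies above the purple one for all 9 genes, and the 2 are closest for Apoe.

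Between the libraries, all 10 genes were at a higher level in haplodeficient than in control macrophage-like cells, by 1.11-fold to 1.62-fold. There were 3 past 1.5-fold: Gpnmb (751 and 1214 CPM, ratio 1.62, 1.55 to 1.68), Syngr1 (184 and 296 CPM, 1.61, 1.49 to 1.75) and Cd9 (508 and 796 CPM, 1.57, 1.49 to 1.65). Of the 2765 genes tested in these cells 5.46% passed in either direction, 1.74% higher and 3.73% lower in the haplodeficient library. The other ratios were 1.476 (1.43 to 1.52) for Fabp5, 1.44 (1.32 to 1.57) for Apoc2, 1.34 (1.29 to 1.40) for Trem2, 1.34 (1.30 to 1.37) for Lgals3, 1.32 (1.24 to 1.42) for Lpl, 1.18 (1.15 to 1.22) for Cd63 and 1.11 (1.11 to 1.12) for Apoe. On the log2(CPM + 5) scale the median over the 10 genes was 0.47, beside -0.004 over all genes tested. Proximal tubule marker RNA moved with the library: the 11 markers of that class summed to 682 CPM in control and 19.2 CPM in haplodeficient macrophage-like cells, with 11 and 10 of the 11 genes seen, and its part in the ratios was not tested.

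The makeup of the class moved with the library too. Gpnmb-high subclusters were 22.3% (19.1 to 25.7) of control and 40.9% (38.02 to 43.9) of haplodeficient macrophage-like cells, or 142 of 638 and 452 of 1104. As a share of all kept cells they were 1.63% and 4.90%. The largest of the other subclusters, number 1, took 29.9% and 30.3%, while subcluster 4 took 21.6% and 10.2%. With the subclusters given the same weight in both libraries, the median log2 ratio over the 10 genes was 0.15, 0 genes passed 1.5-fold and Cd63 turned to -0.03. With every cell thinned to 1000 UMIs the median was 0.71 and 6 genes passed. These are shares of captured cells from 1 library a group, without counts of cells per kidney.

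Within the Gpnmb-high subclusters 0 of the 10 genes passed 1.5-fold between the libraries, a count near the share over all 2700 genes tested there (6.78% in either direction), and the median log2 ratio was 0.12. The Gpnmb ratio between them was 1.14 (1.09 to 1.19), and the range over the 10 genes was 0.969 (Lgals3) to 1.24 (Apoc2). In the other macrophage subclusters 1 of 8 genes with enough UMIs passed 1.5-fold (5.86% of all genes tested there): Lpl, whose level was 52.6 CPM in control and 117 CPM in haplodeficient cells (ratio 2.22, 1.77 to 2.82). Lpl was higher in each of subclusters 1 (51.8 and 120 CPM), 3 (46.9 and 76.6 CPM) and 4 (60.6 and 164 CPM). Fabp5 (ratio 0.784) and Cd63 (0.798) were lower there in the haplodeficient library, and Cd9 (1.36) and Lgals3 (1.21) higher. Gpnmb and Syngr1 were under the minimum level in these cells. Free RNA could account for about 6.25% of the control Lpl UMIs in subcluster 1 and 0.895% of the haplodeficient ones.

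**Figure D5:**
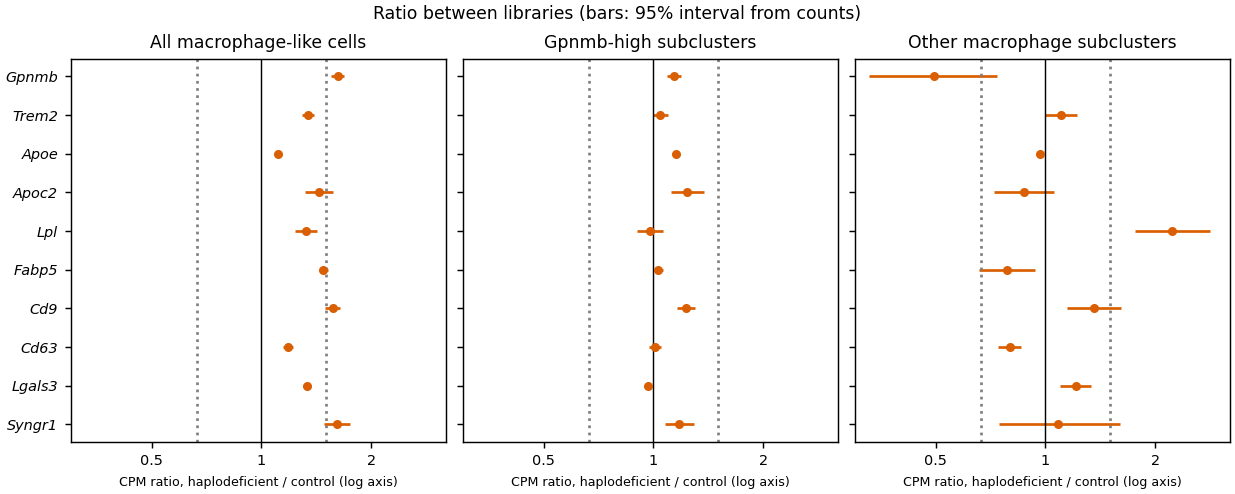
Ratio of CPM, haplodeficient over control (log axis), for each gene in all macrophage-like cells (left), the Gpnmb-high subclusters (middle) and the other macrophage subclusters (right), with 95% intervals from counts as bars; the solid line marks a ratio of 1 and the dotted lines 1.5-fold. All 10 points lie above 1 on the left, none passes a dotted line in the middle, and Lpl (2.22) lies past it on the right, where Gpnmb also falls below the lower line but has only 62 and 45 UMIs.

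In monocyte-like cells 7 of the 10 genes passed the minimum level. Fabp5 was past 1.5-fold higher in the haplodeficient library (80.4 and 151 CPM, ratio 1.87, 1.16 to 3.21), beside 6.66% of all genes tested. Apoc2 (259 and 390 CPM) was also higher there, and just under the limit once 5 CPM had been added to each level. Lpl (165 and 70.4 CPM, 0.426), Cd9 (621 and 406 CPM, 0.654) and Cd63 (93.8 and 28.0 CPM, 0.299) were past it in the other direction, beside 10.1% of genes tested. The median log2 ratio was -0.19 over the 7 and 0.44 over all 10 genes, the 3 low genes (Gpnmb, Trem2 and Syngr1) being above 0 on counts of 13, 80 and 7 UMIs against 0, 4 and 0. The control held 52 monocyte-like cells, 6 of them classical, against 70 of 369 in the haplodeficient library. Within nonclassical cells, Lpl was at 180 and 81.6 CPM and Cd9 at 731 and 511 CPM, in the same direction. In monocyte-like cells the 11 proximal tubule markers summed to 366 and 12.1 CPM (9 and 6 of them seen), and the 9 endothelial markers to 607.5 and 379 CPM (3 and 8 of them seen, with Cdh5 and Kdr at 0 in the control). Their part in these ratios was not tested. For Cd63, free RNA could account for 32.3% of the control and 68.9% of the haplodeficient UMIs in monocyte-like cells.

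In dendritic cell-like cells 6 of the 10 genes passed the minimum level, and 1 was past 1.5-fold, beside 3.99% of genes higher over all genes tested. That gene was Lgals3, at 443 CPM in the control and 774 CPM in the haplodeficient library (ratio 1.75, 1.57 to 1.95). It was higher in type 1 (253 and 491 CPM), type 2 (770 and 1103 CPM) and mature cells (140 and 433 CPM), and lower in the 10 and 15 plasmacytoid cells (212 and 75.3 CPM, from 11 and 7 UMIs). Lpl (103 and 109 CPM), Fabp5 (226 and 261 CPM), Cd9 (274 and 238 CPM), Cd63 (111 and 106 CPM) and Apoe (62.4 and 73.9 CPM) had ratios of 0.869 to 1.18. The median over all 10 genes was 0.01.

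The genes of related pathways were grouped in fixed lists and read in the same 2 ways in macrophage-like cells: between the libraries, and between the Gpnmb-high and other subclusters in both libraries (12.8% of all genes tested were higher there in both, and 13.6% lower in both). Of 19 lysosomal genes, 15 were higher in Gpnmb-high cells in both libraries and 0 lower. Between the libraries 1 of 19 was past 1.5-fold, which is near the 5.46% over all genes. That one was Ctsl, encoding cathepsin L, at 918 CPM in the control and 1769 CPM in the haplodeficient library (log2 0.94). Ctsd, encoding cathepsin D, was at 559 and 5925 CPM in other and Gpnmb-high cells of the control, and at 611 and 5841 CPM in the haplodeficient library. Cstb (662 and 980 CPM between the libraries, log2 0.56), Ctsz (0.44), Ctss (0.35) and Ctsb (0.27) were not past 1.5-fold.

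Of genes for lipid uptake, storage and efflux, 10 of 13 were higher in Gpnmb-high cells in both libraries and 0 lower. There were 2 past 1.5-fold between the libraries, Olr1, a receptor for oxidised lipoprotein (55.4 and 112 CPM, log2 0.95), and Fabp4, another fatty acid carrier (59.3 and 108 CPM, 0.81). Fabp4 was low outside the Gpnmb-high cells, at 3.79 and 133 CPM in other and Gpnmb-high cells of the control and 4.06 and 176 CPM in the haplodeficient library. The cholesterol exporters Abcg1 (107 and 138 CPM, log2 0.36) and Abca1 (473 and 529 CPM, 0.16), the lipoprotein receptor Lrp1 (180 and 229 CPM, 0.34), the lipid droplet gene Plin2 (472 and 439 CPM, -0.10) and the lysosomal cholesterol carrier Npc2 (1043 and 1137 CPM, 0.12) were not. Of 18 further genes linked to this programme, 16 were higher in Gpnmb-high cells in both libraries. Spp1 and Arg1 were past 1.5-fold between the libraries. Spp1, encoding osteopontin, was at 3303 and 9475 CPM (log2 1.52), and within Gpnmb-high cells at 6302 and 14132 CPM. Arg1 (arginase) was at 59.1 and 92.3 CPM (0.60). Capg (0.52), Timp2 (0.48), Vim (0.28) and the elastase gene Mmp12 (955 and 734 CPM, -0.38) were not past it.

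Of 11 TREM2 signalling genes 0 were higher in Gpnmb-high cells in both libraries and 2 were lower (Pik3ap1 and Inpp5d, the latter encoding the SHIP1 phosphatase), beside 12.8% and 13.6% of all genes. Between the libraries 0 passed 1.5-fold, beside 5.46% of all genes, and the median log2 ratio was -0.10. These counts lie near the shares over all genes. Tyrobp, the TREM2 adaptor, was at 2715 and 3066 CPM (0.17), Inpp5d at 252 and 191 CPM (-0.39), Syk at 219 and 171 CPM (-0.35), Plcg2 at 76.2 and 63.3 CPM (-0.25), Hcst at 51.3 and 61.3 CPM (0.24), Grb2 at 299 and 279 CPM (-0.10) and Ms4a6d at 244 and 229 CPM (-0.09). Of the transcription factor list (lipid-sensing nuclear receptors and MiT/TFE factors, which drive lysosomal genes) 3 genes passed the minimum level: Mitf (218 and 183 CPM, -0.24), Ppard (67.6 and 57.2 CPM, -0.22) and Bhlhe40 (67.4 and 80.6 CPM, 0.24). Bhlhe40, a repressor of other genes, was the 1 that was higher in Gpnmb-high cells in both libraries (8.13 and 123 CPM, then 10.7 and 107 CPM). Pik3ap1 was named after its value had been seen.

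Of 5 relatives of the 10 genes that passed the minimum level, 0 were past 1.5-fold between the libraries; Lgals1, encoding galectin-1, was higher in Gpnmb-high cells (209 and 1229 CPM, then 253 and 1139 CPM), and the tetraspanin Cd81 was lower (539 and 220 CPM, 553 and 241 CPM). Cd53 (log2 -0.24), Syngr2 (-0.22) and Lgals9 (0.31) were the other three. Trem1, the inflammatory relative of Trem2, was highest in neutrophil-like cells (648 and 608 CPM) and low in macrophage-like cells (8.30 and 6.09 CPM). Of 4 resident macrophage genes compared, 3 were lower in Gpnmb-high cells in both libraries: Maf (314 and 98.5 CPM, 293 and 97.4 CPM), Selenop (1332 and 771 CPM, 1126 and 676 CPM) and the platelet factor gene Pf4 (403 and 105 CPM, 575 and 286 CPM). Pf4 was past 1.5-fold between the libraries (234 and 355 CPM, 0.59).

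Genes induced by tissue dissociation, such as Fos, Jun and Egr1, were lower in Gpnmb-high cells in both libraries in 9 of 10 cases, Fosb being the other. They took part in the clustering, so this describes the subclusters. Summed over the 12 genes of that list, they were at 11104 CPM in other and 5854 CPM in Gpnmb-high cells of the control, and at 14126 and 6188 CPM in the haplodeficient library. Between the libraries the sum was 8076 and 8503 CPM in macrophage-like cells, with Hspa1a lower (105 and 54.5 CPM, log2 -0.89). Its part in the levels of the 10 genes was not tested.

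Over 16 classes in the 2 libraries (32 points, which share library, depth and the free RNA of their library) the genes most like each member by Pearson correlation of log2(CPM + 5) were sought. Only classes with at least 50 cells in both libraries entered. Type 1 and type 2 dendritic cell-like cells were therefore separate classes here, and no monocyte-like class entered (6 classical and 46 nonclassical control cells). Monocyte-like cells were high in Apoc2 (259 and 390 CPM) and low in Gpnmb (0 and 7.15 CPM), so the likeness of these 2 genes leaves that class out. Gpnmb was most like Apoc2 (0.976), then Ccl12 (0.9498) and the scavenger receptor gene Msr1 (0.947). Trem2 was most like Msr1 (0.953), Tlr7 (0.946) and Gdf3 (0.938), and Fabp5 like Ms4a6d (0.898), Cx3cr1 (0.897) and Milr1 (0.891). Apoe was most like Zmynd15 (0.860), Gm17268 and Lilra5. Apoc2 was most like Gpnmb, Adgre1 (0.934) and Tlr7. Cd63 was most like Gde1 (0.890), Ctsl (0.887) and Fam20c, and Syngr1 like Ctsb (0.802), Cstb and Lpin2. Cd9 was most like Cyb5r1 (0.873), Atf3 and Sft2d2, Lgals3 like Tgif1 (0.874), B4galt6 and Arl4c, and Lpl like Abca9 (0.734), Rab3il1 and Tmem86a. Gpnmb correlated with Trem2 at 0.928 and with Cd9 at 0.233, the extremes being Apoc2 and Cd9.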

How the data were processed

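The deposited files hold whole-number UMI counts per gene and barcode, made with Cell Ranger 4 per the file headers, on build mm10 per the submitters' processing notes; counting options are not given in the sources used here. All 32285 features are genes, 99.9% of them in GENCODE M21. The 10 genes and the lists were chosen with earlier results of these data known.

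Barcodes with at least 500 UMIs, 200 genes and at most 50% mitochondrial UMIs were kept. Scores against simulated doublets (the Scrublet approach), at a rate of 0.8% per 1000 cells, removed 715 control and 804 haplodeficient barcodes. Cells were clustered in 2 steps (scanpy 1.11.5, leidenalg 0.10.2, 2000 variable genes, resolution 1, without the 10 genes and the related lists, except those for dissociation, dividing cells and leukocytes) and clusters were named "-like" from fixed markers; names are rebuilt, not the authors'. UMIs were summed per class and library, as CPM. Ratios carry exact conditional binomial intervals, levels exact Poisson intervals and shares exact Clopper-Pearson intervals (95%), which cover counting error only. Log2 ratios add 5 CPM. Genes entered a comparison from a mean level of 50 CPM and 30 UMIs on, and a difference past 1.5-fold was counted. The expected free RNA comes from barcodes of 1 to 100 UMIs. The calculation of ratios and intervals was checked on simulated counts with known folds. With 1 library per group the genotype was not tested. The closing section gives the effect of 14 planned and 2 added alternatives.

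The named genes are all 10 genes, in each related list the 4 eligible genes with the largest absolute log2 ratio and the 3 most abundant in macrophage-like cells, the 3 genes most correlated with each of the 10, and the 5 leading genes of a subcluster; other names were chosen after their values had been seen.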

Additional observations from a re-analysis of the deposited data

Results flagged for a closer look

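There were 4 of the 10 genes with log2 ratios (haplodeficient over control) that pointed in opposite directions in macrophage-like and monocyte-like cells, with counting intervals on opposite sides of no difference. Lpl was at 0.40 in macrophage-like and -1.18 in monocyte-like cells, Cd9 at 0.64 and -0.61, Cd63 at 0.24 and -1.58, and Apoe at 0.15 and -0.19. Within the macrophage-like class only Cd9 was clearly higher in both sets of subclusters. In Gpnmb-high subclusters the CPM ratios were 0.977 for Lpl, 1.23 for Cd9, 1.01 for Cd63 and 1.16 for Apoe. In the other macrophage subclusters they were 2.22, 1.36, 0.798 and 0.964. The difference between the cell types was not tested, since each group has 1 library. The control held 52 monocyte-like cells against 369, and the Lpl, Cd9 and Cd63 values there rest on 37, 139 and 21 control UMIs. For Cd63, 32.3% and 68.9% of the monocyte-like UMIs could be free RNA, and the part of this was not tested.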

How the results depend on the processing

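With subclusters weighted alike in both libraries, the median log2 ratio of the 10 genes in macrophage-like cells was 0.147, the number past 1.5-fold was 0 and Cd63 turned to -0.03386. Each cell thinned to 1000 UMIs gave a median of 0.714 and 6 genes past 1.5-fold. A mitochondrial limit of 25% gave a median of 0.557, and a fold of 2 gave 0 genes. Median-of-ratios scaling, subtraction of the expected free RNA and a pseudocount of 1 CPM gave medians of 0.47, 0.44 and 0.47 and 3 genes each, and a minimum level of 10 CPM also gave 3 genes. The median lay above 0 under all 14 alternatives, 11 of them within the counting interval. The log2 ratios of single genes left their counting intervals under 9 of 14 alternatives for Lgals3, 8 each for Gpnmb, Apoe and Fabp5, and 7 for Syngr1. It was 6 for Apoc2, 4 each for Lpl and Cd9, 3 for Trem2, and 2 for Cd63 besides its 1 reversal. For Gpnmb the log2 ratio ran from 0.18 to 0.96. The medians in monocyte-like cells (-0.12 to 0.48) and dendritic cell-like cells (-0.31 to 0.07) stayed within the counting intervals of the main values, with 12 and 5 of 14 alternatives above 0. The percent of Gpnmb UMIs in macrophage-like cells of the control and haplodeficient library was 88.9 and 90.7 with doublets kept, 86.5 and 95.2 with a minimum of 1000 UMIs, 96.7 and 97.7 with the listed genes kept for clustering, 90.3 and 92.7 with the class from the markers of each cell alone, and 91.4 and 90.8 with cells thinned. In the haplodeficient library alone it also moved to 97.8 with a mitochondrial limit of 25%, 97.8 with Leiden resolution 2 and 98.03 with each library clustered on its own. Of 2 alternatives chosen after seeing the data, leaving out macrophage subclusters of under 50 cells gave 83.2 and 92.9, and counting the unnamed mononuclear subclusters as macrophage-like gave 96.98 and 97.6. The cause of these shifts was not tested. No paired analysis was possible because each group has 1 library, and no library could be left out. Genes at a few UMIs, such as Gpnmb in monocyte-like cells, are limited by depth.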
